A study of Mus musculus with 10 samples.

Results

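Genes of the cytotoxic granule were followed in naive CD8+ T cells: Gzmm and Gzma, which encode the serine proteases granzyme M and granzyme A, Prf1, which encodes the pore-forming protein perforin, and Nkg7, which encodes a membrane protein of the granule. They were taken by their symbols from a table of 12637 genes, and each symbol matched 1 row, so 4 of 12637 genes are described. RNA was sequenced from CD8+ T cells of naive surface phenotype (CD62L high, CD44 low or absent), sorted from spleens of female C57Bl/6 mice aged 6 weeks that were wild type (WT) or carried the Ikaros-Zn4-/- mutation, called mutant below. The cells were taken at 0 min or after stimulation for 30 or 120 min on a plate carrying bound anti-CD3 together with anti-CD28, antibodies that trigger the T cell receptor complex and a costimulatory receptor. For each genotype there are 2 libraries without stimulation, 2 after 30 min and 1 after 120 min, 10 in all, and both genotypes received the same stimulus. No library is from cells kept for 30 or 120 min without stimulation. The stimulus and the time in culture therefore cannot be told apart. Whether replicates came from separate mice is not stated in the labels, so the p-values describe only how far these samples spread, which may be technical. Nor do the labels say whether the mice of a group were pooled.

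Killer T cells and natural killer cells store perforin and granzymes in modified lysosomes. On contact with a target cell the granules are carried to the contact site and fuse with the cell membrane, perforin opens the target membrane, and the granzymes enter and cleave proteins inside. Naive CD8+ T cells are known to hold little of this machinery and to acquire it over days after activation, while memory and innate-like CD8+ T cells carry part of it at rest. Ikaros, encoded by Ikzf1, is a DNA-binding zinc finger protein of lymphocytes that regulates transcription, and the mutation is named for a zinc finger of its DNA-binding domain.

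The values are RPKM, reads scaled to the length of the gene model and to the depth of the library, so they can be compared between genes as levels per length. The libraries held 4.50 to 13.3 M reads, found from the spacing of the deposited values. For each member a gene model length was found at which all 10 libraries gave whole reads: 1472 bases for Gzmm, 878 for Gzma, 2054 for Prf1 and 878 for Nkg7, with a largest distance from a whole number of 0.109 reads, in Nkg7. Summed over all libraries these are 3507 reads for Gzmm, 174 for Gzma, 3854 for Prf1 and 18962 for Nkg7. Intervals given below for reads are exact 95% Poisson or binomial intervals and cover counting error only, not the spread between samples. Markers of the sorted cell type, Cd8a, Cd8b1, Cd3d, Cd3e, Cd3g, Trac and Trbc2, were present in every library, with a summed level of 1559 to 3997 RPKM in WT and 1770 to 4691 RPKM in mutant libraries. Ikzf1, the mutated gene, stood at 134 to 171 RPKM in WT and 206 to 263 RPKM in mutant libraries, and a value for the whole gene cannot show the loss of a zinc finger.

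All 4 members lie on the autosomes, are protein coding and overlap no other annotated gene in GENCODE M21 (GRCm38). Gzmm spans chr10:79689020-79695261 on the plus strand and Prf1 chr10:61297833-61304680 on the plus strand. Gzma spans chr13:113093825-113100981 on the minus strand and Nkg7 chr7:43437073-43438249 on the plus strand. The stretch before each start site is shown because the members differed from each other between genotypes and over stimulation, with the letters of 3 transcription factor motifs in capitals. The sequences are from RefSeq (GRCm38.p6), on the strand of the gene, and end at the base before the first annotated start site. They cover chr10:79688770-79689019 for Gzmm, chr13:113100982-113101231 for Gzma, chr10:61297586-61297832 for Prf1 and chr7:43436888-43437072 for Nkg7.

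Gzmm: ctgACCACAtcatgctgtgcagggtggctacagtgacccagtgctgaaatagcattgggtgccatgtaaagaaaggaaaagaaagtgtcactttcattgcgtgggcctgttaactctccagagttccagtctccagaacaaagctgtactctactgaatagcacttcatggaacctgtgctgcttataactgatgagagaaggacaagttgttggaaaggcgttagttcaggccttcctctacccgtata

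Gzma: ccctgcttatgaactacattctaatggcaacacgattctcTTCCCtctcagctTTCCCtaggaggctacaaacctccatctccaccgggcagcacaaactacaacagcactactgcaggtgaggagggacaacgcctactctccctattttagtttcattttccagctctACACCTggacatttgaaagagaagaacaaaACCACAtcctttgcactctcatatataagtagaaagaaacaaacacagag

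Prf1: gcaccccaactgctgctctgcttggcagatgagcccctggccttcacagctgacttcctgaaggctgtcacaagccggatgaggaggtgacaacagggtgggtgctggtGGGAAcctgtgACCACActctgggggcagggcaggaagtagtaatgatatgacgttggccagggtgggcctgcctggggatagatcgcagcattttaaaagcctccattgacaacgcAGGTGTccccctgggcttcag

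Nkg7: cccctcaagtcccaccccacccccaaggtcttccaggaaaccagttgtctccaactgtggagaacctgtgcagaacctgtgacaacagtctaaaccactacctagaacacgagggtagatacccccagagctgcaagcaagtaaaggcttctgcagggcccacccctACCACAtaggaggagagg

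Both strands of the 250 bases before the RefSeq start site were searched, so a capital run above is a motif or its reverse complement. The Ikaros core GGGAA occurs 2 times in the Gzma window and 1 time each in those of Prf1 and Nkg7, and these letters are not in the Gzmm window. Of 32851 such windows of all genes, 56.2% hold it. The RUNX motif TGTGGT occurs 1 time in each of the 4 windows, and 14.1% of all windows hold it. The T-box motif AGGTGT occurs 1 time each in the windows of Gzma, Prf1 and Nkg7, and 11.8% of all windows hold it. The Nkg7 matches to the Ikaros core (-18 to -14) and to the T-box motif (-14 to -9) share 1 base and lie in the 65 bases that are not shown, since GENCODE M21 places them inside the gene. A match is a description of letters and was not tested for binding.

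Gzmm had the largest difference between genotypes of the 4 members on the log2(RPKM + 1) scale, while from pooled reads of all libraries the ratio was 31.2 for Gzmm and 37.3 for Gzma, with overlapping intervals (26.0 to 37.7 and 15.7 to 116). WT libraries had Gzmm at 0.759 and 0.611 RPKM at 0 min (12 and 8 reads), 1.46 and 1.87 RPKM at 30 min (25 and 16 reads) and 3.82 RPKM at 120 min (59 reads). Mutant libraries had it at 47.6 and 64.1 RPKM at 0 min (935 and 425 reads), 54.3 and 82.4 RPKM at 30 min (818 and 700 reads) and 37.6 RPKM at 120 min (509 reads). The lowest mutant library thus lay above the highest WT library, and the WT libraries were low without exception. From pooled reads the mutant level was 74.8 times the WT level at 0 min (interval 48.3 to 123), 40.3 times at 30 min (29.6 to 56.4) and 9.84 times at 120 min (7.51 to 13.1). The last ratio compares 1 library with 1 and was not tested.

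With limma on log2(RPKM + 1), the Gzmm difference over all times was 4.50 (SE 0.28, adjusted p = 1.43e-05). It was 5.06 at 0 min (SE 0.23, adjusted p = 0.000215) and 4.68 at 30 min (SE 0.23, adjusted p = 0.000281). On this scale changes refer to RPKM + 1 and understate the fold of genes with low levels. By size of the difference Gzmm ranked 2 of 12203 genes tested at 0 min and 3 over all times. Adjusted p over 19 alternatives for the difference over all times ran from 3.49e-07 to 0.000133.

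**Figure D1:**
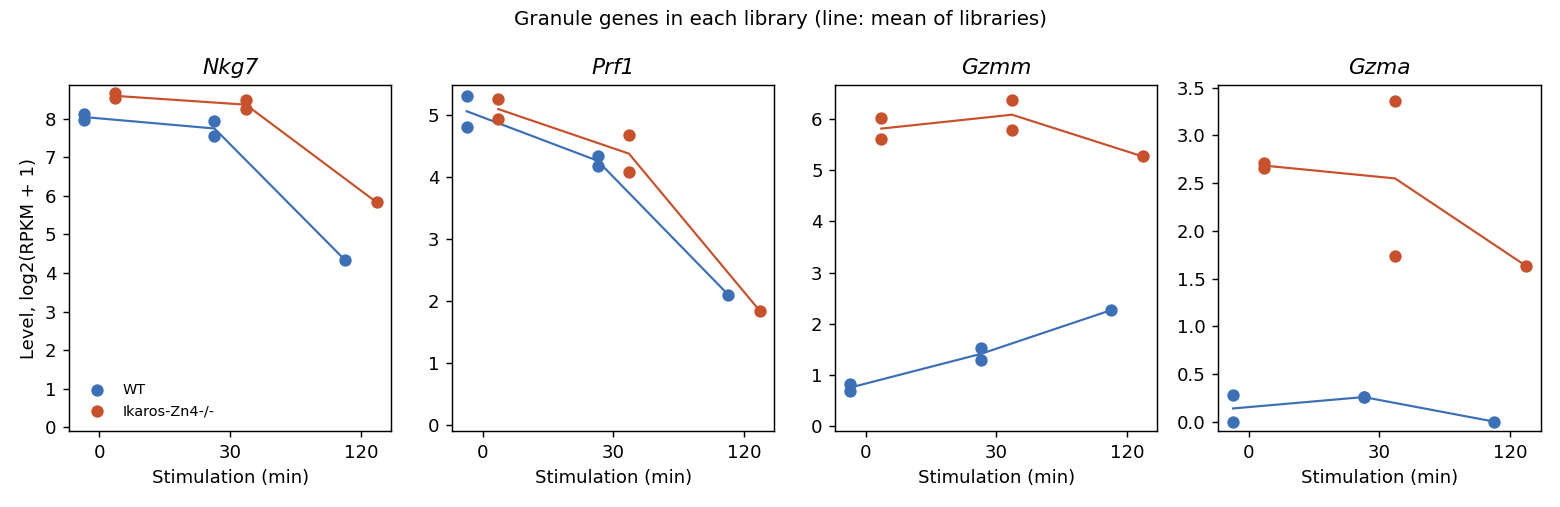
Level of each member in each library on the log2(RPKM + 1) scale (vertical axis, own range per panel) at 0, 30 and 120 min (horizontal axis, evenly spaced categories), with 1 point per library and a line through the group means. Mutant points for Gzmm and Gzma lie above every WT point, while those of Prf1 lie among the WT points and fall with them.

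Gzma was low even in mutant cells, but there too the genotypes did not overlap. WT cells had 2 and 0 reads at 0 min (0.212 and 0 RPKM), 2 and 1 reads at 30 min (0.196 RPKM in each) and 0 reads at 120 min. Where a count of 0 is taken as up to 3 reads, it stands for up to 0.384 RPKM in the WT library at 0 min and 0.325 RPKM in that at 120 min. The exact intervals of these counts reach 0.473 and 0.400 RPKM. Mutant cells had 5.30 and 5.56 RPKM at 0 min (62 and 22 reads), 2.34 and 9.28 RPKM at 30 min (21 and 47 reads) and 2.10 RPKM at 120 min (17 reads). The level was steady between mutant libraries at 0 min and uneven at 30 min, where replicate 2 was 3.97 times replicate 1 (interval 2.33 to 7.0).

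From pooled reads the mutant level of Gzma was 46.2 times the WT level at 0 min (interval 12.4 to 388) and 24.7 times at 30 min (8.09 to 123). At 120 min it was at least 6.46-fold higher, taking 3 reads for the WT library and the 17 mutant reads as they are, and the exact interval of 17 against 0 reads has a lower limit of 4.71. The log2(RPKM + 1) difference over all times was 2.26 (SE 0.28, limma, adjusted p = 0.00104, and 0.0002 to 0.00827 over 19 alternatives), with 0.90 for a pseudocount of 5 and 4.48 for one of 0.1. At 0 min it was 2.55 (SE 0.47, adjusted p = 0.0436). That call at 0 min ended without WT 0 min replicate 1 (adjusted p = 0.196) or 2 (0.229), WT 30 min replicate 1 (0.1015) or 2 (0.1019) and mutant 0 min replicate 1 (0.170) or 2 (0.175). It also ended with no filter (0.0671) and with a pseudocount of 5 (0.124), so it held under 12 of 20 alternatives. At 30 min it was 2.29 (SE 0.47, adjusted p = 0.0595), which missed the threshold and passed it without mutant 30 min replicate 1 (adjusted p = 0.00627), with limma-voom (0.0438) and with quantile normalization (0.0479). Gzma passed the filter on low values only through the mutant libraries, with a mean of 4.92 RPKM there and 0.121 RPKM in WT, so it could hardly enter the test without differing.

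Nkg7 was the most abundant member and was moderately higher in mutant cells over all times. Its WT levels in RPKM were 250.3 and 275 at 0 min, 187 and 243 at 30 min and 19.1 at 120 min (176 reads). Its mutant levels were 402 and 367 at 0 min, 304 and 353 at 30 min and 55.9 at 120 min (452 reads). Within each time the mutant libraries lay above the WT libraries, although the mutant library at 120 min lay below every WT library of the earlier times. The mutant level was 1.5 times the WT level at 0 min (interval 1.45 to 1.56), 1.56 times at 30 min (1.49 to 1.64) and 2.93 times at 120 min (2.46 to 3.51, 1 library against 1, not tested). The log2 difference over all times was 0.77 (SE 0.16, limma, adjusted p = 0.0144, and 0.00114 to 0.0463 over 19 alternatives). Tested at single times it missed the threshold, with 0.55 at 0 min (adjusted p = 0.205) and 0.62 at 30 min (adjusted p = 0.133).

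Prf1 showed no difference between genotypes that passed the test. Its WT levels in RPKM were 27.1 and 38.8 at 0 min, 17.2 and 19.3 at 30 min and 3.29 at 120 min (71 reads). Its mutant levels were 29.7 and 37.3 at 0 min, 16.0 and 24.6 at 30 min and 2.59 at 120 min (49 reads). The libraries of the genotypes interleaved at 0 min and at 30 min. The log2 difference over all times was 0.01 with an interval of -0.32 to 0.34 (95%, limma, adjusted p = 0.982). From pooled reads the ratio of mutant to WT was 0.976 at 0 min (interval 0.901 to 1.06), 1.06 at 30 min (0.952 to 1.19) and 0.787 at 120 min (0.536 to 1.15).

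**Figure D2:**
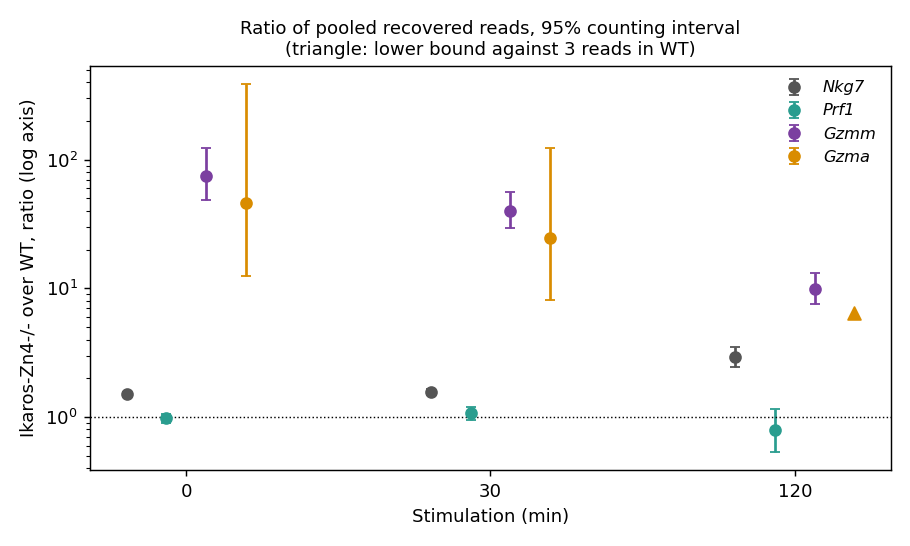
Ratio of the mutant to the WT level from pooled reads (vertical log axis) for each member at 0, 30 and 120 min, with bars for the 95% counting interval and a triangle for the lower bound of Gzma at 120 min. Gzmm starts at 74.8 and stands at 9.84 at 120 min, Nkg7 goes from 1.5 to 2.93, and the Prf1 intervals include 1 at each time.

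Over all times, 3 of the 4 members were called between genotypes, all higher in the mutant, where 9.42% of the 12203 genes tested were called. At 0 min 2 of 4 were called (2.47% of all genes) and at 30 min 1 of 4 (2.61%). The first 2 counts include Gzma, which entered the test only through the mutant libraries, so its call adds no support to them. In 2 of 4, Gzmm and Gzma, the lowest of 5 mutant libraries exceeded the highest of 5 WT libraries, a separation that 2.7% of all genes showed in this direction. For Gzma this separation too was nearly fixed by its entry through the mutant libraries, so it adds no support to this count.

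Prf1 and Nkg7 were sharply lower after 120 min of stimulation in both genotypes. Prf1 in WT cells at 120 min was at 0.102 times its 0 min level (interval 0.0788 to 0.129), and in mutant cells at 0.0819 times (0.0603 to 0.109). Nkg7 was at 0.073 times its 0 min level in WT cells (0.0624 to 0.0849) and at 0.142 times in mutant cells (0.129 to 0.157). In these genes the 120 min library of each genotype lay below all its other libraries. Over both genotypes the median gene changed by -0.13 (log2) at 30 min and by -0.32 at 120 min, and stimulation changes over both genotypes are given relative to it, while the tests were made on the deposited scale. At 120 min Nkg7 fell by 2.92 on the log2 scale (SE 0.15, limma, adjusted p = 3.23e-05) and Prf1 fell by 2.79 (SE 0.22, adjusted p = 5.71e-05). They ranked 16 and 29 from the lowest change among 12203 genes. The CD8 T cell markers moved with these genes: all 7 were lower at 120 min (5 of 7 and 6 of 7 under the scalings that centre or equalise all genes). Of all 12203 genes 4935 were called lower on the deposited scale. The summed level of these markers at 120 min was 1559 RPKM in the WT and 1770 RPKM in the mutant library, below every earlier library. Their part in the result was not tested. In bulk samples, fewer cells that express a gene and less of its RNA per cell cannot be told apart.

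The fall of Prf1 had begun by 30 min and that of Nkg7 came mainly later. At 30 min Prf1 was at 0.553 times its 0 min level in WT cells (interval 0.502 to 0.608) and at 0.603 times in mutant cells (0.546 to 0.665), and in both genotypes the 30 min libraries lay below the 0 min libraries. Its change over both genotypes was -0.63 (SE 0.18, limma, adjusted p = 0.0295). The Prf1 call at 30 min ended without WT 0 min replicate 2 (adjusted p = 0.0962), WT 30 min replicate 1 (0.0973) or 2 (0.0701), mutant 0 min replicate 1 (0.0525) or 2 (0.0879), and mutant 30 min replicate 1 (0.0721). Nkg7 had -0.13 at 30 min (SE 0.12, adjusted p = 0.169). From 30 to 120 min Nkg7 fell by 2.76 relative to the median of that comparison (SE 0.15, adjusted p = 0.000117) and Prf1 fell by 2.13 (SE 0.22, adjusted p = 0.000286).

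Gzmm rose with time in WT cells from its low level. The WT libraries at 30 min (1.46 and 1.87 RPKM) lay above those at 0 min, and the library at 120 min (3.82 RPKM) above both. From pooled reads the WT level at 30 min was 2.31 times that at 0 min (interval 1.32 to 4.16) and at 120 min 5.51 times (3.27 to 9.67). At 120 min the WT change was 1.80 relative to the median gene of that contrast (SE 0.28, limma, adjusted p = 0.00553, and 0.0796 with a pseudocount of 5), resting on 1 library at 120 min. At 30 min it was 0.81 (adjusted p = 0.127), not past the threshold. In mutant cells the 120 min library lay below all 4 earlier ones, at 0.725 times the 0 min level (0.654 to 0.804), with a log2 change of -0.20 relative to the median (SE 0.28, adjusted p = 0.157). Over both genotypes the change at 120 min was 0.80 (adjusted p = 0.0734), which passed without mutant 30 min replicate 1 (adjusted p = 0.04) or 2 (0.0406).

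The response of Gzmm at 120 min, mutant minus WT, was -2.06 on the log2 scale (SE 0.40), with an adjusted p = 0.703 over all genes in limma, so the difference between the responses did not pass. Neither did that of Nkg7, at 0.95 (SE 0.30, adjusted p = 0.892), Prf1, at -0.29 (interval -1.32 to 0.73, adjusted p = 0.99), or Gzma, at -0.91 (adjusted p = 0.989). No gene was called for a difference in response (0% of 12203 at 30 and at 120 min in limma, with 656 and 661 below an unadjusted p of 0.05, and 0 at either time when recovered reads were tested with limma-voom).

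Gzma changes with stimulation did not pass. In mutant cells its level at 120 min was 0.392 times that at 0 min from pooled reads (interval 0.218 to 0.666), and at 30 min 0.902 times (0.645 to 1.26). The log2 change in mutant cells at 120 min was -0.70 relative to the median gene (SE 0.57, limma, adjusted p = 0.173). It passed without mutant 30 min replicate 1 (adjusted p = 0.0113) or 2 (0.0121), which lie outside the groups compared and differ most in this gene. Over both genotypes the change at 120 min was -0.28 relative to the median (adjusted p = 0.244, and 0.0178 or 0.0192 without these libraries). At 30 min it was -0.01 on the deposited scale (adjusted p = 0.989), with 0.40 without replicate 1 (adjusted p = 0.121) and -0.41 without replicate 2 (adjusted p = 0.0982), so its sign rested on which mutant library was kept.

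**Figure D3:**
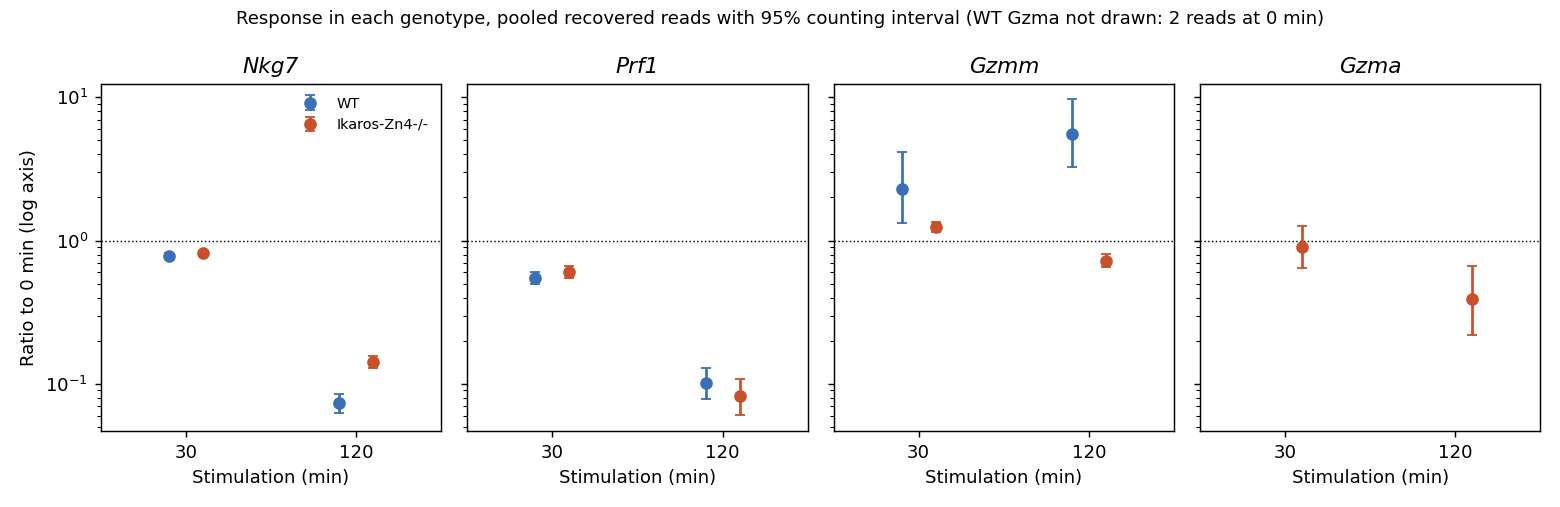
Ratio of the level at 30 and at 120 min to that at 0 min (vertical log axis) in each genotype, from pooled reads with 95% counting intervals. Prf1 and Nkg7 lie far below 1 at 120 min in both genotypes, and Gzmm lies at 5.51 in WT and at 0.725 in mutant cells.

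Among stimulation contrasts, 1 of 4 members was called at 30 min over both genotypes (19% of all genes), 2 of 4 at 120 min (59.7%) and 2 of 4 from 30 to 120 min (48.2%), all lower. Of all genes called at 120 min on the deposited scale 2356 were higher and 4935 lower, and 3650 were higher and 3649 lower with median ratio scaling, which centres the genes. In WT cells alone 0 of 4 were called at 30 min (6.03%; Prf1 passed with limma-voom, adjusted p = 0.0263) and 3 of 4 at 120 min (43.6%), with Gzmm higher. In mutant cells alone 0 of 4 were called at 30 min (2.74%; Prf1 passed with limma-voom, adjusted p = 0.0455) and 2 of 4 at 120 min (47.3%).

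The order of the levels per length differed between genotypes. At 0 min WT cells had Nkg7 at 263 ± 17.5 RPKM, Prf1 at 33.0 ± 8.29, Gzmm at 0.685 ± 0.104 and Gzma at 0.106 ± 0.15 (SD, n = 2 libraries). Mutant cells had Nkg7 at 384 ± 25.1 RPKM, Gzmm at 55.9 ± 11.6, Prf1 at 33.5 ± 5.35 and Gzma at 5.43 ± 0.189 (SD, n = 2 libraries). Gzmm thus stood below Prf1 in both WT libraries at 0 min and above it in both mutant libraries. At 120 min the WT library had Gzmm at 3.82 RPKM and Prf1 at 3.29 RPKM, whose counting intervals overlap (2.91 to 4.92 and 2.57 to 4.15), while the mutant library had Gzmm at 37.6 and Prf1 at 2.59 RPKM.

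Other granzymes were represented by Gzmb alone, 1 of 8 listed, and the other 7 were not analysed here. Gzmb, the granzyme induced in effector cells, had 0.336 to 1.34 RPKM in WT and 0.536 to 1.41 RPKM in mutant libraries. Its log2 difference between genotypes was -0.03 (limma, adjusted p = 0.951), and its libraries overlapped between genotypes. At 120 min it had a change of -0.53 on the deposited scale (adjusted p = 0.0376), and -0.37 with median ratio scaling (adjusted p = 0.109) and -0.16 with quantile normalization (adjusted p = 0.513).

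Genes for granule contents, maturation and release moved in both directions with stimulation. Of 25 tested (28 listed), 4 rose and 2 fell at 30 min (19% of all genes were called) and 7 rose and 9 fell at 120 min (59.7% of all genes, near the list's share), with a median log2 change of -0.15 at 120 min on the deposited scale against -0.32 for all genes. The largest rise was that of Ctsl, a lysosomal cysteine protease, with 1.92 at 120 min (adjusted p = 0.000504). The largest fall was that of Cst7, the cathepsin inhibitor cystatin F, with -2.82 (adjusted p = 4.48e-05). Some further genes of this list are named here after their values were seen. Srgn, the proteoglycan that packs granzymes, rose by 1.76 at 120 min (adjusted p = 0.000111), so it moved against Prf1 and Nkg7. Ctsw, a cathepsin of cytotoxic cells, changed by -1.99 (adjusted p = 3.92e-05), and the priming factor Unc13d of granule fusion by -1.95 (adjusted p = 4.07e-05). Ctsc, which activates granzymes by removing their propeptide, had 0.14 (adjusted p = 0.312). With median ratio scaling 11 of the 25 were higher and 8 lower at 120 min, with a median of 0.25.

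Between genotypes 4 of these 25 genes were higher and 2 lower in mutant cells, with a median of 0.13 against 0.01 for all genes. Of all genes 9.42% were called in this comparison. Named after their values were seen, the higher genes were Igf2r, a receptor that sorts lysosomal enzymes, at 1.02 (adjusted p = 2.19e-05), Sytl3, an effector of Rab27 proteins, at 0.92 (adjusted p = 0.000433), Ctsb at 0.46 and Ctsw at 0.34, the last with an adjusted p = 0.0588 under median ratio scaling. The lower genes were Sytl2, another Rab27 effector, at -0.84 (adjusted p = 0.00636) and Srgn at -0.69 (adjusted p = 0.00363). Sytl2 had group means of 0.221 to 0.379 RPKM in mutant cells, below the filter of 0.5 RPKM. It entered the test only through the WT libraries, which nearly fixes its call, so it adds no support to the count of lower genes.

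Intracellular serpins that inhibit granzymes fell at 120 min in 3 of 3 tested (5 listed), where 4935 of all 12203 genes fell and the median gene had -0.32. Serpinb9, an inhibitor of granzyme B, had -1.45 (adjusted p = 0.00112), Serpinb6b, known as an inhibitor of granzyme A, -1.08 (adjusted p = 0.0209), and Serpinb6a -0.58 (adjusted p = 0.0329), on the deposited scale. With median ratio scaling only Serpinb9 passed, with Serpinb6b at -0.72 (adjusted p = 0.057) and Serpinb6a at -0.38 (adjusted p = 0.12). At 30 min, where 19% of all genes were called, 1 of 3 fell, Serpinb9 at -0.69 (adjusted p = 0.038, and 0.06 with quantile normalization). Serpinb6b was higher in mutant cells, 7.90 to 27.5 RPKM against 2.86 to 7.82 RPKM in WT, with a log2 difference of 1.44 (adjusted p = 0.00281). It was the 1 of 3 called between genotypes, where 9.42% of all genes were called.

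Of 9 other killing and effector molecules tested (10 listed), 3 rose and 3 fell at 120 min, a share near the 59.7% of all genes called. Tnf, which encodes tumour necrosis factor, rose by 2.36 (adjusted p = 7.3e-05), and the chemokine genes Ccl3 by 2.26 (adjusted p = 0.00343) and Ccl4 by 2.07 (adjusted p = 0.000121). These 2 chemokine rises were uneven between genotypes. At 120 min Ccl4 had 20.2 RPKM in the mutant and 2.74 RPKM in the WT library, and Ccl3 had 13.9 and 1.99 RPKM. Tnfsf10, which encodes the death ligand TRAIL, had -2.09 (adjusted p = 0.000145), Lta -1.02 (adjusted p = 0.00148) and Ltb -0.75 (adjusted p = 0.0178), the last 2 encoding lymphotoxins, though Ltb had -0.34 with median ratio scaling (adjusted p = 0.121). At 30 min Tnf had risen by 3.02 and Tnfsf10 had changed by -0.69, the 2 called of 9, a share near the 19% of all genes called. Between genotypes 3 of 9 were higher in mutant cells and 0 lower (Tnf at 0.48, Tnfsf10 at 0.53 and the chemokine gene Xcl1 at 1.25), where 9.42% of all genes were called, with a median of 0.52 against 0.01 for all genes. The Xcl1 call ended with median ratio scaling (adjusted p = 0.0555). Xcl1 differed most at 120 min, with 11.8 RPKM in the mutant and 0.546 RPKM in the WT library, against means of 5.05 and 2.20 RPKM at 0 min.

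Transcription factors of cytotoxic cells were higher in mutant cells in 5 of 11 tested (12 listed) and lower in 0, with a median of 0.32 against 0.01 for all genes. Of all genes 9.42% were called in this comparison. The 5, named after their values were seen, were Hopx at 1.78 (adjusted p = 0.000162), the T-box factors Eomes at 1.64 (adjusted p = 3.72e-05) and Tbx21 at 1.47 (adjusted p = 0.000165), Prdm1 at 1.09 (adjusted p = 0.00415) and Irf4 at 0.92 (adjusted p = 0.0428, and 0.0575 with median ratio scaling). Eomes and Tbx21 are known activators of granule genes in CD8+ T cells. Eomes had 1.90 to 9.39 RPKM in WT and 10.6 to 28.6 RPKM in mutant libraries, without overlap. Runx3, another known regulator of these genes, had a difference of 0.12 (adjusted p = 0.548). With stimulation 4 rose and 0 fell at 30 min, where 19% of all genes were called. At 120 min 3 rose and 6 fell (4 with median ratio scaling), where 59.7% of all genes were called. The largest rise at 120 min was that of Irf4 at 2.54 (adjusted p = 0.000736) and the largest fall that of Id2 at -1.71 (adjusted p = 0.000269).

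**Figure D4:**
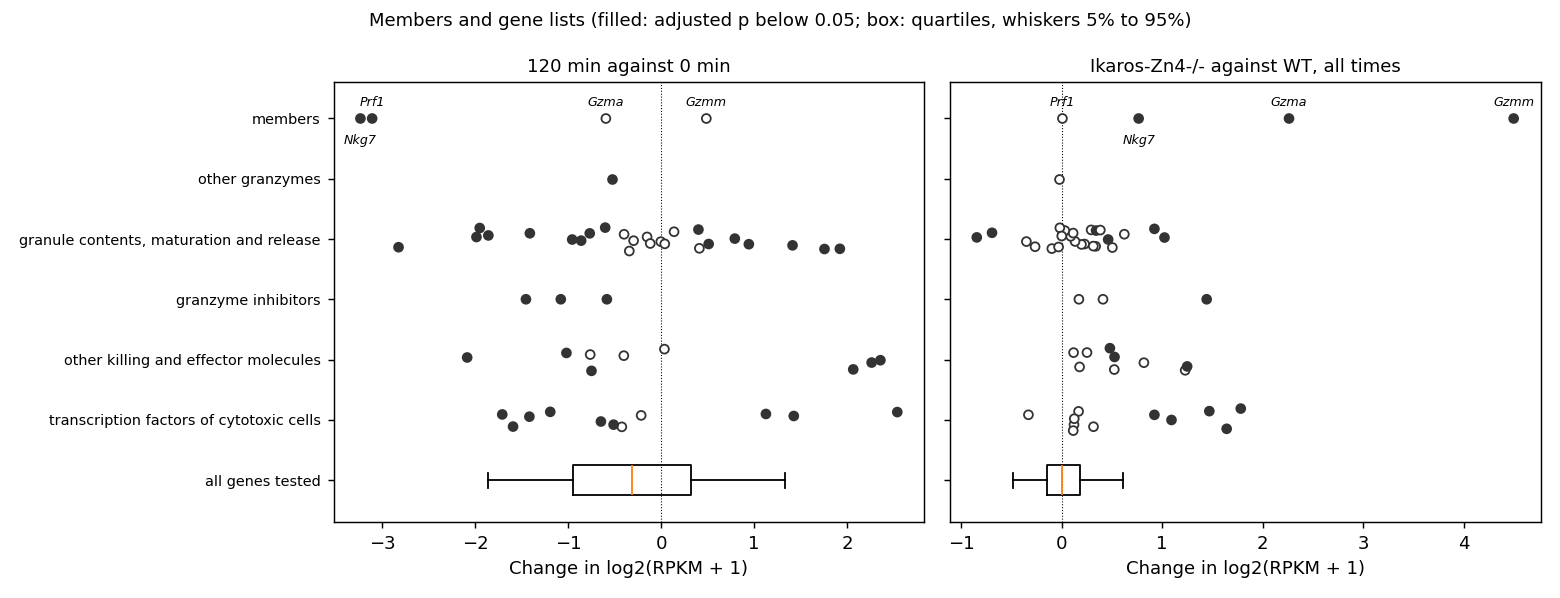
Change in log2(RPKM + 1) (horizontal axes) at 120 min against 0 min over both genotypes (left) and between mutant and WT cells over all times (right) for the members and the genes of each list, with 1 point per gene (spread vertically only to separate points), filled where the adjusted p was below 0.05, and a box for all genes tested. All changes are drawn on the deposited scale, with no median taken off. At 120 min Nkg7 and Prf1 lie at the low end with Cst7, and between genotypes Gzmm and Gzma lie beyond every gene of the 5 pathway lists drawn.

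Markers of other cells were compared because granule genes are also made by natural killer cells and by CD8+ T cells of memory phenotype. Of 8 markers of memory phenotype, all with a row, 4 were higher in mutant cells (Il2rb, Cxcr3, Ly6c2 and Eomes, which is also in the list of transcription factors) and 1 lower (Itga4). Of all genes 9.42% were called in this comparison. The summed level of the 8 markers was 143 to 209 RPKM in WT and 250 to 336 RPKM in mutant libraries, without overlap. Of single genes 2.7% were separated in this direction. Il2rb makes up most of that sum (81.0 to 181 RPKM in WT and 159 to 219 RPKM in mutant libraries, which overlap), while Ccl5 (adjusted p = 0.505) and Klrk1 (adjusted p = 0.837) did not pass. Cxcr3, a chemokine receptor of memory and effector cells, had 0.66 to 4.30 RPKM in WT and 12.6 to 53.7 RPKM in mutant libraries. Cd44, the surface marker on which the sort selected low cells, had 0.893 to 1.75 RPKM in WT and 0.731 to 1.11 RPKM in mutant libraries (adjusted p = 0.196). The part of such cells in the granule gene levels was not tested.

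Of 10 natural killer cell markers only Klrd1, which CD8+ T cells also make, had a row, at 11 to 66.1 RPKM in WT and 7.63 to 76.4 RPKM in mutant libraries (adjusted p = 0.651 between genotypes). The other 9 were not analysed here, and the table holds only genes whose highest group mean was 1.00 RPKM or more. Of 6 CD4 and regulatory T cell markers 2 had a row, with 3.0 to 33.9 RPKM summed in WT and 4.56 to 34.9 RPKM in mutant libraries. The 2 of 5 B cell markers summed to 6.98 to 15.1 and 4.47 to 10 RPKM, and the 3 of 6 myeloid markers to 8.14 to 24.8 and 8.59 to 34.2 RPKM. Of the latter Itgam, which lymphocytes can also make, was higher in mutant cells, at 0.869 to 1.61 RPKM against 0.164 to 0.307 RPKM in WT (adjusted p = 0.00272). Its WT levels lay below the filter of 0.5 RPKM. Itgam thus entered the test only through the mutant libraries, which nearly fixes its call. The mutant libraries at 30 min, in which Gzma differed most, also differed in the myeloid gene Lyz2, with 14.1 RPKM in replicate 1, where Gzma was 2.34 RPKM, and 0.822 RPKM in replicate 2, where Gzma was 9.28 RPKM. The other myeloid markers hardly shared this difference. The summed level of the 3 was 34.2 RPKM in replicate 1 and 19.7 RPKM in replicate 2. Cst3 averaged 18.0 RPKM in these libraries and reached at most 19.6 RPKM in any mutant library. Of 8 naive T cell markers 2 were higher in mutant cells (Igfbp4 at 1.59 and Dapl1 at 0.73) and 0 lower, where 9.42% of all genes were called. Their summed levels were 1575 to 2356 RPKM in WT and 1353 to 2453 RPKM in mutant libraries.

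The genes most like each member over the 10 libraries were found by Pearson's r of log2(RPKM + 1), as a description in which the points share genotype and time. For Gzmm these were Cacnb3 (r = 0.989), Dapk1 (0.985), Nrp1 (0.982), Ston1 (0.980) and Mmp14 (0.980), of which Nrp1 had 0.267 to 0.394 RPKM in WT and 17.7 to 28.2 RPKM in mutant libraries. For Gzma they were Fut10 (r = 0.982), Gucy1a3 (0.977), Ube2l6 (0.975), Gucy1b3 (0.974) and Samd3 (0.968), all with lower levels in every WT library than in any mutant library. Of all genes 2.7% were separated in this direction. Picking genes for their likeness to Gzma nearly fixes this separation, so it adds no support. The same holds for Nrp1, picked for its likeness to Gzmm. The subunits of soluble guanylate cyclase encoded by Gucy1a3 and Gucy1b3 were thus both in the set.

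For Prf1 they were Nudt16l1 (r = 0.997), Hvcn1 (0.995), Plekhj1 (0.995), Ifi203 (0.993) and Adck2 (0.993). For Nkg7 they were Cst7 (r = 0.991), Itgae (0.990), Cd96 (0.990), Dapl1 (0.990) and Rrp15 (0.988), among them the granule inhibitor Cst7 and the surface receptors Itgae and Cd96 of lymphocytes. Between members, Gzmm and Gzma had r = 0.936 and Prf1 and Nkg7 r = 0.909, while Gzmm and Prf1 had r = -0.047.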

How the data were processed

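RNA was measured in 10 libraries of naive CD8+ T cells. The deposited values are RPKM, computed by the authors for each gene and library; the submitters' processing notes name TopHat2 2.0.12 and HTSeq 0.6.1 and the builds mm10 and GRCm38. The sources used here do not give the annotation, the gene lengths or any filter. The library preparation does not mark strand. Groups and replicate numbers were taken from the labels; the mutant library at 120 min is numbered 1 in its title and 2 in its description, and the description was used.

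Reads were recovered from the RPKM steps: 65.8 to 71.2% of values below 200 reads lay within 0.01 of a whole number, where 2% would by chance. The recovered libraries held 4.50 to 13.3 M reads. The 12203 genes that averaged 0.5 RPKM or more were tested with limma 3.58.1 in R 4.3.3 on log2(RPKM + 1), with 1 mean for each of the 6 groups (4 residual degrees of freedom), or, over all times, an additive model of genotype and time (6). The 120 min groups have 1 library each and were assumed to vary like the others. Adjusted p-values are Benjamini-Hochberg values over these genes, with a threshold of 0.05, and the procedure was tested on simulated data. Alternatives were other pseudocounts, filters and scalings, limma-voom on recovered reads, the spread of the compared groups only, no intensity trend, a replicate block, and leaving out each library.

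The members and lists were chosen with earlier results of these data known. Genes named are the 4 members, the largest called rise and fall of each list, every called gene of lists with at most 10 measured genes, and the 5 genes most correlated with each member. Other named genes are marked in the text as chosen after their values were seen, except Ikzf1, Runx3, Cd44, Ccl5, Klrk1 and Lyz2, which lie outside this rule and carry no mark.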

Additional observations from a re-analysis of the deposited data

Results flagged for a closer look

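The response of Gzmm at 120 min differed in direction between genotypes. The WT library at 120 min (3.82 RPKM) lay above all 4 earlier WT libraries, and the mutant library (37.6 RPKM) lay below all 4 earlier mutant libraries. The mutant response minus the WT response was -2.06 on the log2(RPKM + 1) scale (SE 0.40, unadjusted p = 0.00137). With limma over all genes the adjusted p was 0.703, and 0.177 to 1 over 18 alternatives, whose values ran from -2.94 to -1.14, so the difference in response did not pass. Each genotype has 1 library at 120 min.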

How the results depend on the processing

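Of 924 values recomputed under alternatives for the 4 members, 882 kept their side of the threshold, 27 passed it newly, 15 lost it and 0 reversed as calls. The differences between genotypes over all times in Gzmm, Gzma and Nkg7 passed under each of 19 alternatives, although Gzma entered the test only through the mutant libraries, which nearly fixes its outcome, and with pseudocounts of 5 and 0.1 that of Gzma was 0.90 and 4.48 and that of Gzmm 3.19 and 5.21. The falls of Nkg7 and Prf1 at 120 min passed under each of 18 alternatives. Gzmm at 30 min (0.47 as deposited) passed with a pseudocount of 0.1 (0.72), median ratio scaling (0.56), quantile normalization (0.48) and the replicate block (0.47), and Nkg7 at 30 min with quantile normalization (-0.42). Gzmm at 120 min passed with a pseudocount of 0.1 (0.88), median ratio scaling (0.83), quantile normalization (0.68) and limma-voom (0.91), and Gzma at 120 min (-0.59) when the spread came from the compared groups only. Leaving out 1 library gave -0.91 to -0.61 for Prf1 at 30 min, 0.38 to 0.59 for Gzmm at 120 min and -0.66 to -0.53 for Gzma at 120 min. Nkg7 at 0 and at 30 min between genotypes passed with limma-voom (adjusted p = 0.0444 and 0.0386). The cause was not tested.

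Without a 120 min library that genotype's group is lost, so changes at 120 min over both genotypes have no value there, and the difference over all times has none with the spread of compared groups only. Same-numbered libraries had correlated deviations of 0.0369 to 0.23 over 6 pairs of groups, all positive but low, so the numbers were not taken as pairing. Both 120 min libraries are numbered 2 in their descriptions, so a shift shared by that number would enter the changes at 120 min. With the replicate block these changes over both genotypes were -3.31 for Nkg7, -3.31 for Prf1, 0.35 for Gzmm and -0.77 for Gzma on the deposited scale. The replicate block moved the genes called at 30 min from 2317 to 3484 over both genotypes, from 736 to 1891 in WT and from 334 to 961 in mutant cells, and those between genotypes at 30 min from 319 to 549. Under it Prf1 passed at 30 min in WT (-0.80, adjusted p = 0.0194) and in mutant cells (-0.72, adjusted p = 0.0341), and Gzmm at 120 min in mutant cells (-0.68, adjusted p = 0.0496). With limma-voom 1878 and 1114 genes were called at 30 min in WT and mutant cells, and 670 (302 as deposited) and 655 (319) between genotypes at 0 and 30 min. When the spread came from the compared groups alone these 4 counts were 233, 0, 96 and 80, and that at 120 min in mutant cells was 2976 (5771). Without WT 0 min replicate 1 or 2 the genes called at 30 min over both genotypes were 1183 and 779, without WT 30 min replicate 1 or 2 872 and 1153, without mutant 0 min replicate 1 or 2 1378 and 1105, and without mutant 30 min replicate 1 1262. Leaving out 1 library took the counts at 30 min to as low as 13 in WT and 39 in mutant cells, those between genotypes to 105 at 0 min and 86 at 30 min, and that over all times (1150) to 706. No gene was called for a difference in response at 120 min, and 1, 4, 13 and 3 were with pseudocounts of 0.1 and 5, no filter and no intensity trend. Depth limits Gzma most, with 5 reads over all WT libraries.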
